A study of Mus musculus with 2 samples.

Results

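The receptors and ligands of vascular endothelial growth factor (VEGF) were examined as 7 genes of the 31057 in the count tables of both libraries, picked by symbol. They were the receptor tyrosine kinases Kdr, Flt1 and Flt4, the coreceptors Nrp1 and Nrp2, and the ligands Vegfa and Vegfc, and each had counts in both libraries. The cirrhosis library held liver cells of mice that had inhaled vaporized carbon tetrachloride for 12 weeks. The control library held liver cells of mice labelled control, and what they inhaled is not stated. All mice were C57BL/6 animals of 16 weeks that carried Cdh5-Cre and mTmG +/+, a reporter that turns from tdTomato to membrane GFP where the endothelial Cdh5 promoter has driven Cre, and live GFP-positive cells were sorted. Cells of 3 mice were pooled per library, so each group was 1 sample, no test between groups could be made, and intervals are 95% intervals that cover counting error only.

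VEGF-A signals mainly through KDR (VEGFR2), the kinase that drives growth, survival and permeability of blood vessel endothelium. FLT1 (VEGFR1) binds VEGF-A tightly but signals weakly and is also made as a secreted form that holds ligand back. FLT4 (VEGFR3) is the receptor of VEGF-C and is best known from lymphatic vessels, although the sinusoidal endothelial cells of liver (LSECs), whose pores (fenestrae) open the blood to the hepatocytes, also carry it. NRP1 presents VEGF-A to KDR, NRP2 assists VEGF-C and FLT4, and both also bind class 3 semaphorins. In liver, VEGF-A made by neighbouring cells is known to keep LSECs fenestrated.

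All 7 genes were found in GENCODE M21 on GRCm38. Kdr lay at chr5:75932827-75978458 and Flt1 at chr5:147561604-147726011, both on the minus strand. Flt4 lay at chr11:49609263-49652739, Nrp1 at chr8:128358604-128503363, Nrp2 at chr1:62703285-62818695 and Vegfc at chr8:54077606-54187096, all on the plus strand. Vegfa lay at chr17:46016993-46032369 on the minus strand. The only overlapping gene on the opposite strand was Gm29083 within Nrp2, with 3 UMIs in cirrhosis and 1 UMI in control LSEC-like cells. A count of 3′ tags per gene does not separate the secreted from the membrane form of Flt1. Promoters are shown for Kdr, which like Nrp1 differed between the libraries in every class, and for Flt1, its high-affinity counterpart. That of Vegfc, the member that ran the other way, is also shown. Each is the 250 bases before the RefSeq start in GRCm38.p6, at chr5:75978456-75978705 for Kdr, chr5:147726012-147726261 for Flt1 (both minus strand) and chr8:54077282-54077531 for Vegfc (plus strand). Capitals mark CNGGAA on either strand, a motif that holds GGAA, the core recognised by ETS factors, which regulate endothelial genes. GGAA with other bases before it is not marked or counted, and the Flt1 and Vegfc windows hold it too.
Kdr: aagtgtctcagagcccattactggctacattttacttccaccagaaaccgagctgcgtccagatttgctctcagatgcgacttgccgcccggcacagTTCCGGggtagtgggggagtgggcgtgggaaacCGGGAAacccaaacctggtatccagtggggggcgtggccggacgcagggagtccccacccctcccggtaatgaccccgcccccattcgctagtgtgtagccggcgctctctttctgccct
Flt1: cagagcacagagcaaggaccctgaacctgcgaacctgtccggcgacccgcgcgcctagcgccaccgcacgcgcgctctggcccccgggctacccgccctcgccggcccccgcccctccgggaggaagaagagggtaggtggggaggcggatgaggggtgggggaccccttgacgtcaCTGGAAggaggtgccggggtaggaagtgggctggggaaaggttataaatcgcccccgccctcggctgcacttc
Vegfc: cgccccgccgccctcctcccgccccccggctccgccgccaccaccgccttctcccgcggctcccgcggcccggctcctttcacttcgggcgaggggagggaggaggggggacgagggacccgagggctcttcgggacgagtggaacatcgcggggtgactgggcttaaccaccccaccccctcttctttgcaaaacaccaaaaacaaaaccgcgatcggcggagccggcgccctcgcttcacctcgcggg
The window of Kdr held 2 matches, that of Flt1 held 1 and that of Vegfc held 0, and 54.2% of 32851 mouse promoter windows of that length held at least 1. Among windows not shown, that of Nrp1 held 2, those of Flt4 and Nrp2 held 1 each, and those of Vegfa held 0 and 1.

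The cirrhosis library had 8327 barcodes and 77339928 UMIs, and the control library had 5642 barcodes and 45767322 UMIs. In all, 17 barcode sequences occurred in both, and leaving them out changed no count of members. Named LSEC-like cells (2646 in cirrhosis and 2816 in control) were pericentral, periportal or intermediate. Intermediate clusters had LSEC markers but reached no zone's marker threshold, so the name gives no position. Named vessel classes were central-vein endothelial-like cells (374 in cirrhosis and 75 in control) and large-vessel endothelial-like cells (202 in cirrhosis and 81 in control). Gja5 and Vwf were among the leading genes of large-vessel cells. Lymphatic endothelial-like cells numbered 64 in cirrhosis and 1 in control. LSEC-like cells carried the endothelial marker Cdh5 at 1107 CPM (the UMIs of a gene per 1000000 UMIs of the summed class) in cirrhosis and 1007 CPM in control, and the LSEC marker Stab2 at 1702 CPM in cirrhosis and 2378 CPM in control. The libraries stood apart: of the LSEC-like cells, 79.1% of cirrhosis cells lay in cluster 3 of a first clustering, against 60.4% of control cells in cluster 4, whose leading genes held the stress-response genes Fosb and Socs3, and 35.7% in cluster 6. Fos, an immediate-early gene, stood at 217 CPM in cirrhosis and 2198 CPM in control LSEC-like cells. Summed markers of other cell types in LSEC-like cells came to 551 CPM in cirrhosis and 354 CPM in control for 14 hepatocyte genes, and to 238 CPM in cirrhosis and 96.8 CPM in control for 12 Kupffer cell genes. The 14 stellate or mesenchymal genes ran the other way, at 111 CPM in cirrhosis and 215 CPM in control, and of 12 marker lists 8 were higher and 4 lower in cirrhosis. Gm42418, a transcript that overlaps ribosomal RNA, had 1511 CPM in cirrhosis and 2158 CPM in control. Their part in the results was not tested.

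Kdr was a gene of the sinusoid in both libraries. Its level in intermediate LSEC-like cells was 2568 CPM in cirrhosis (2543 to 2594) and 3171 CPM in control (3143 to 3199). Periportal cells, next to the portal inflow, had 1916 CPM in cirrhosis and 2322 CPM in control. Pericentral cells, at the outflow, had 1631 CPM in cirrhosis and 2803 CPM in control. Vessel-type cells stood lower: central-vein cells had 693 CPM in cirrhosis and 1475 CPM in control, and large-vessel cells had 724 CPM in cirrhosis and 1110 CPM in control. Lymphatic cells, measured in cirrhosis alone, had 618 CPM. In cirrhosis, the intervals of large-vessel and central-vein cells overlapped, as did those of central-vein and lymphatic cells, and all other neighbours in the order of levels were apart. In control, no neighbours overlapped. Kdr was nearly universal in LSEC-like cells: after thinning to 3000 UMIs per cell, 99.1% of cirrhosis and 99.7% of control cells had a Kdr UMI (99.8% in both before thinning). In barcodes that should lack the gene, the thinned share was 18.0% in cirrhosis and 35.9% in control T or NK cell-like barcodes, and 15.6% in cirrhosis and 21.4% in control B cell-like barcodes. Median depths were 9526 UMIs in cirrhosis and 6918 UMIs in control LSEC-like cells, 5936 UMIs in cirrhosis and 6980 UMIs in control T or NK cell-like barcodes, and 3927 UMIs in cirrhosis and 4317 UMIs in control B cell-like barcodes. Thinning left out 111 cirrhosis and 213 control LSEC-like cells.

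Flt1 was spread over blood vessel classes more evenly than Kdr. It stood at 886 CPM in cirrhosis and 906 CPM in control central-vein cells, and at 771 CPM in cirrhosis and 838 CPM in control large-vessel cells. LSEC-like cells had 659 CPM in cirrhosis and 948 CPM in control when pericentral, 583 CPM in cirrhosis and 849 CPM in control when intermediate, and 763 CPM in cirrhosis and 920 CPM in control when periportal. In control, each class overlapped its neighbour in the order of Flt1 levels. In cirrhosis, the order was central-vein, large-vessel, periportal, pericentral and intermediate, with only large-vessel and periportal cells overlapping. The balance of Flt1 to Kdr therefore differed between vessel types, as a ratio of UMIs within a class. There were 22.7 Flt1 UMIs per 100 Kdr UMIs in cirrhosis (22.2 to 23.2) and 26.8 in control intermediate cells (26.3 to 27.3). Central-vein cells had 128 in cirrhosis (122 to 134) and 61.4 in control (55.2 to 68.2), and large-vessel cells had 106 in cirrhosis (99.3 to 114) and 75.5 in control (67.9 to 83.9).

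Flt4 followed the sinusoid and the lymphatic cells. Its highest level was in lymphatic cells of the cirrhosis library, at 1141 CPM (1064 to 1223). Intermediate LSEC-like cells had 943 CPM in cirrhosis and 980 CPM in control, and periportal cells had 740 CPM in cirrhosis and 732 CPM in control. Pericentral cells had 450 CPM in cirrhosis (432 to 469) and 817 CPM in control (785 to 851). Large-vessel cells had 306 CPM in cirrhosis and 344 CPM in control, and central-vein cells had 221 CPM in cirrhosis and 386 CPM in control. Lymphatic cells thus carried 1.42-fold more Flt4 than all LSEC-like cells of their library, with 3.65-fold less Kdr. Their lymphatic identity rested on markers such as Prox1, a lymphatic master factor, at 471 CPM in these 64 cells against 3.30 CPM in LSEC-like cells.

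Nrp1 had its highest levels in LSEC-like cells. These were 1324 CPM in cirrhosis and 1881 CPM in control intermediate cells, 1195 CPM in cirrhosis and 1887 CPM in control periportal cells, and 982 CPM in cirrhosis and 1672 CPM in control pericentral cells. Central-vein cells had 588 CPM in cirrhosis and 1154 CPM in control, and large-vessel cells had 579 CPM in cirrhosis and 975 CPM in control. Lymphatic cells had 52.7 CPM of Nrp1 and 45.5 CPM of Flt1. Both lay below the 207 CPM of Nrp1 and 107 CPM of Flt1 in T or NK cell-like barcodes of that library, a class that also stood above the LSEC-like ratio of these genes to Kdr. Against B cell-like barcodes, with 32.7 CPM of Nrp1 (19.0 to 52.3) and 23.0 CPM of Flt1 (11.9 to 40.3), the lymphatic intervals of 37.1 to 72.6 CPM and 31.1 to 64.3 CPM overlapped. Neither gene is told apart from background in lymphatic cells at this depth. Nrp2 showed the opposite in lymphatic cells, at 669 CPM (610 to 732), 1.40-fold above all LSEC-like cells. The other Nrp2 levels were 517 CPM in cirrhosis and 549 CPM in control intermediate cells, 422 CPM in cirrhosis and 483 CPM in control pericentral cells, and 413 CPM in cirrhosis and 495 CPM in control periportal cells. Vessel cells had the least, with 275 CPM in cirrhosis and 319 CPM in control central-vein cells, and 224 CPM in cirrhosis and 244 CPM in control large-vessel cells.

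**Figure D1:**
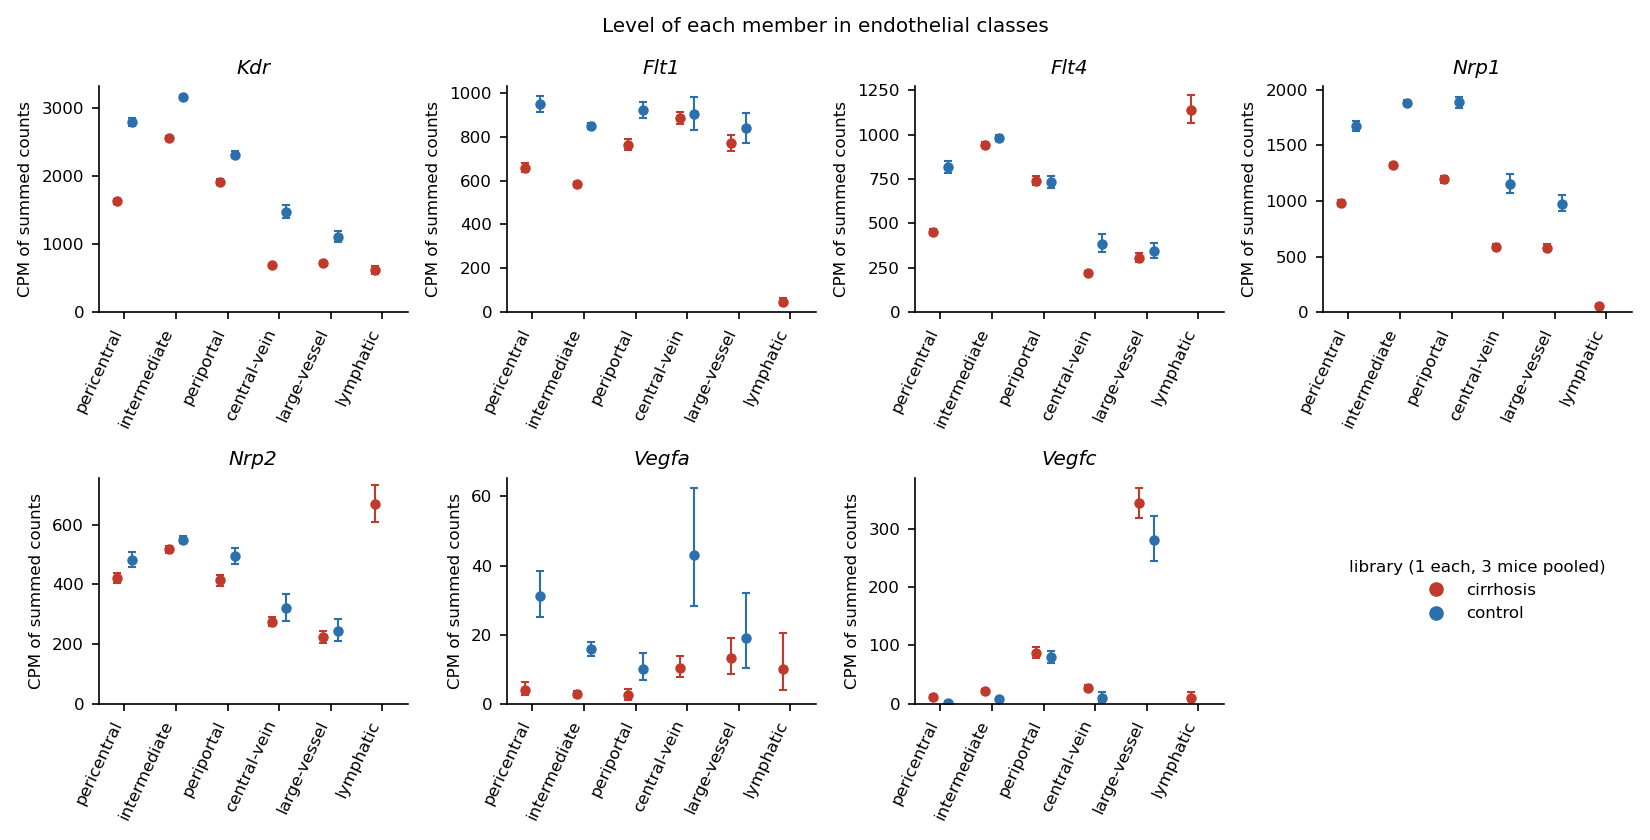
CPM of summed counts (linear y axes from 0, each gene with its own) for the 7 members by endothelial class (x axis), with cirrhosis left of control and exact Poisson 95% intervals. Kdr, Nrp1 and Flt4 are low in the vessel classes, Flt1 is level among them, Flt4 and Nrp2 are high in lymphatic cells, and Vegfc is highest in large-vessel cells at 344 CPM in cirrhosis and 281 CPM in control.

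Across the 5 endothelial classes with at least 50 cells in both libraries, 29 of the 35 member-by-class values were lower in cirrhosis. Of the 35 intervals, 23 lay below 0 and 4 above it. These values are 7 genes read again in classes of the same 2 libraries. The share of all genes that were lower, or that had an interval clear of 0, was not counted, so these counts have no background. Small ratios of genes with many UMIs are among the 23, such as Flt4 in intermediate cells at -0.06 (-0.09 to -0.02). Median log2 ratios of all genes in these classes ran from -0.07 to -0.02 at a mean of at least 5 CPM. In all LSEC-like cells together, Kdr had 57295 UMIs or 2253 CPM in cirrhosis and 63300 UMIs or 3004 CPM in control, a log2 ratio of -0.42 (-0.43 to -0.40). Flt1 had 631 CPM in cirrhosis and 873 CPM in control, at -0.47 (-0.50 to -0.44). Nrp1 had 1228 CPM in cirrhosis and 1853 CPM in control, at -0.59 (-0.61 to -0.57). Flt4 had 802 CPM in cirrhosis and 924 CPM in control, at -0.20, and Nrp2 had 478 CPM in cirrhosis and 533 CPM in control, at -0.16. Of the 7 members, 1 was at least 1.5-fold higher (Vegfc) and 2 were at least 1.5-fold lower (Nrp1 and Vegfa) in cirrhosis. Among all 9720 genes at a mean of at least 5 CPM, 5.27% were that much higher and 6.72% that much lower. The median log2 ratio was -0.42 over the 7 members and -0.06 over those genes, and this count is a description with no test. Nrp1 lay at the edge of that fold, and fell short of it under 9 of 16 alternative settings.

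The size of the receptor differences depended on the zone. In pericentral cells, 4 members were at least 1.5-fold lower (12% of 9716 genes were) and 1 was higher (7.86% of genes). Kdr was 1.72-fold lower there, Flt4 1.82-fold lower and Nrp1 1.70-fold lower, while Flt1 at 1.44-fold and Nrp2 at 1.15-fold did not reach that limit. The LSEC marker Clec4g was lower there too, at 2250 CPM in cirrhosis and 3638 CPM in control. Stab2 had 1643 CPM in cirrhosis and 2548 CPM in control, while Cdh5 had 1130 CPM in cirrhosis and 986 CPM in control. First-step cluster 5 held 572 cirrhosis and 27 control cells. Its 210 cirrhosis LSEC-like cells had 1546 CPM of Kdr and 398 CPM of Flt4. How many were pericentral is not given here, and their part was not tested. In intermediate cells, 1 was lower (6.55% of genes) and 1 higher (5.07%), and no receptor passed: Kdr was 1.23-fold lower, Flt1 1.46-fold, Nrp1 1.42-fold and Flt4 1.04-fold. Intermediate clusters with immediate-early genes among their leading genes held 218 and 47 cirrhosis cells and 692 and 393 control cells. The one led by Gm42418 held 351 cirrhosis and 703 control cells. The remaining intermediate clusters ran the other way, with 381 and 667 cirrhosis cells and 127 and 101 control cells. The part of these cluster sizes was not tested. In periportal cells, 2 were lower (9.34% of genes) and 0 higher (6.19%). Nrp1 was 1.58-fold lower, Kdr 1.21-fold lower and Flt1 1.21-fold lower, and the interval of the Flt4 ratio, -0.06 to 0.09, held 0. In central-vein cells, 4 were lower (19.2% of genes) and 1 higher (13.4%). Kdr was 2.13-fold lower, Nrp1 1.96-fold and Flt4 1.74-fold, while the Flt1 interval, -0.16 to 0.10, held 0. The make-up of this class differed between the libraries: 95.2% of its cirrhosis cells came from first-step cluster 5, against 33.3% (25 cells) of its control cells, of which 65.3% (49 cells) came from cluster 4. The LSEC marker Clec4g moved with these receptors, at 855 CPM in cirrhosis and 2268 CPM in control central-vein cells, and so did Stab2, at 640 CPM in cirrhosis and 1170 CPM in control. Among cells of cluster 5 alone, Kdr had 675 CPM in cirrhosis and 939 CPM in control, Flt4 had 219 CPM in cirrhosis and 240 CPM in control, and Nrp1 had 576 CPM in cirrhosis and 848 CPM in control. Clec4g there had 840 CPM in cirrhosis and 1442 CPM in control, while Stab2 ran the other way, at 622 CPM in cirrhosis and 332 CPM in control. The part of this make-up in the receptor differences was not tested. Kdr, Flt4 and Nrp1 passed the fold in 8 of 8 alternatives that kept enough cells, but with only the 25 control cells of cluster 5 the comparison falls below the 50 cells required. In large-vessel cells, 2 were lower (13.1% of genes) and 0 higher (11.3%), with Kdr 1.53-fold and Nrp1 1.68-fold lower and intervals around 0 for Flt1, Flt4 and Nrp2. Nrp1 passed the fold in 4 of 5 classes, Kdr in 3, Flt4 in 2, and Flt1 and Nrp2 in 0. Kdr in large-vessel cells passed in 4 of 12 alternative settings, with log2 ratios of -0.64 to -0.31, and Nrp1 in periportal cells in 3 of 12, at -0.67 to -0.46. The control classes of central-vein and large-vessel cells were small, at 75 and 81 cells.

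Levels in T or NK cell-like barcodes, which should lack Kdr, moved with the libraries too. They held 249 CPM of Kdr in cirrhosis and 818 CPM in control, and 207 CPM of Nrp1 in cirrhosis and 491 CPM in control. Their Nrp1 in cirrhosis stood above the LSEC-like ratio to Kdr, at 82.9 against 54.5 UMIs per 100 Kdr UMIs. B cell-like barcodes did not move in that way. They held 42 Kdr UMIs of 520652 UMIs in cirrhosis (121 cells) and 17 of 198298 UMIs in control (45 cells). Nrp1 had 17 UMIs there in cirrhosis and 7 UMIs in control. The background difference thus depends on the class it is read from. The part of receptor RNA from other cells in the central-vein and large-vessel differences was not tested. Within a first-step cluster that held at least 50 LSEC-like cells of each library, the differences were smaller for some receptors. In cluster 6 (219 cirrhosis and 1004 control cells), Kdr stood at 3038 CPM in cirrhosis and 3238 CPM in control, 1.07-fold lower. Flt1 was 1.43-fold lower and Nrp1 1.39-fold lower there, and the Flt4 and Nrp2 intervals held 0. In cluster 3 (2094 cirrhosis and 100 control cells), Kdr was at -0.21 on the log2 scale, Flt1 at -0.56 and Nrp1 at -0.58, and the Flt4 and Nrp2 intervals again held 0. Flt1 and Nrp1 thus kept much of their difference within these clusters and Kdr less of it. Cells within a cluster were not matched by zone or depth. In cluster 3, Vegfc had 29.6 CPM in cirrhosis and 91.8 CPM in control, where control periportal cells had 79.2 CPM. Cluster 6 had Nrp1 among its leading genes, and Gm42418 at 3156 CPM in cirrhosis and 3892 CPM in control. Its median depths were 3620 UMIs in cirrhosis and 4960 UMIs in control. The part of these differences was not tested.

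**Figure D2:**
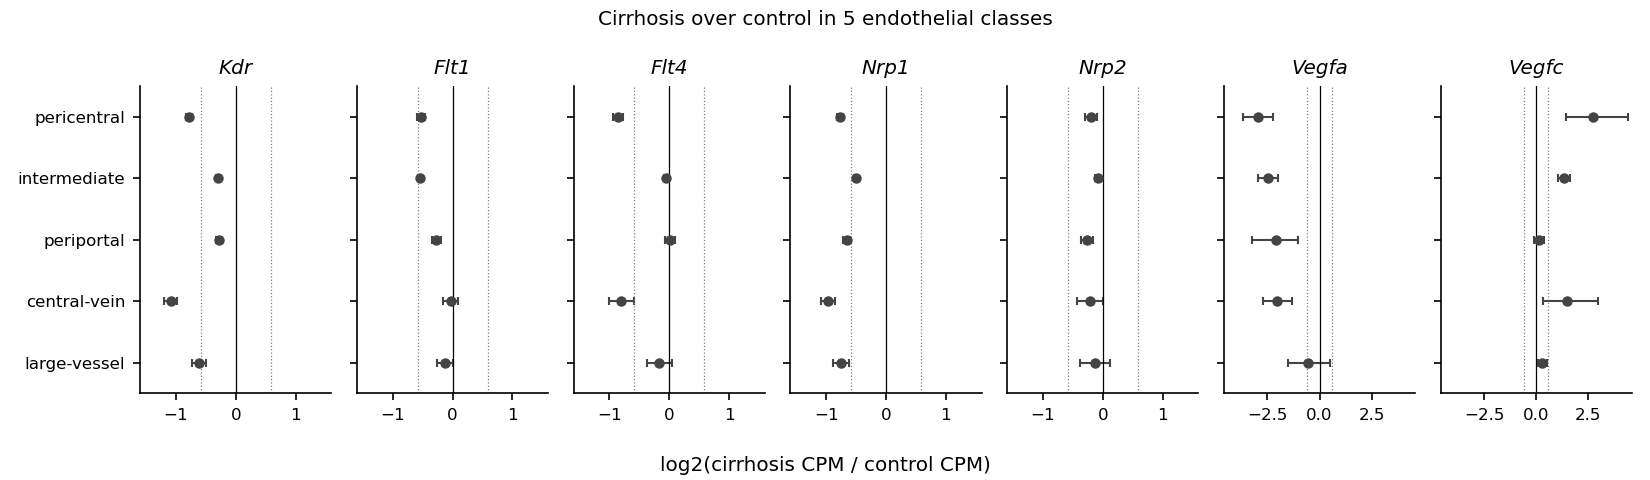
Log2 ratio of cirrhosis over control CPM (x axis, wider for the 2 ligands) for each member in 5 endothelial classes (rows), with exact conditional 95% intervals. Dotted lines mark 1.5-fold; receptors lie at or left of 0 except Flt4 in periportal cells at 0.02, Vegfa lies left of 0 and Vegfc right of it.

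Zonation, the difference between pericentral and periportal LSEC-like cells of the same library, ran in opposite directions for Kdr and Flt4. In cirrhosis, pericentral cells had less Kdr than periportal cells, at a log2 ratio of -0.23 (-0.28 to -0.19), and in control they had more, at 0.27 (0.23 to 0.32). Flt4 gave -0.72 (-0.79 to -0.64) in cirrhosis and 0.16 (0.07 to 0.24) in control. Flt1 gave -0.21 in cirrhosis (-0.28 to -0.14), and its control interval, -0.04 to 0.12, held 0. With central-vein cells joined to the pericentral class, Flt1 in cirrhosis lay above 0 in 9 of 10 settings. Nrp1 was lower in pericentral cells in both libraries, at -0.28 in cirrhosis and -0.17 in control, and the Nrp2 intervals held 0 in both. The difference between libraries, and the part of first-step cluster 5 in it, was not tested. With the classes as named, Kdr lay at 0.05 to 0.27 in control over 6 settings, and Flt4 at -0.01 to 0.16. With central-vein cells joined to the pericentral class, Kdr ranged from -0.22 to 0.15 and Flt4 from -0.34 to 0.05 in control, over 10 settings. In cirrhosis both stayed below 0 in those settings.

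**Figure D3:**
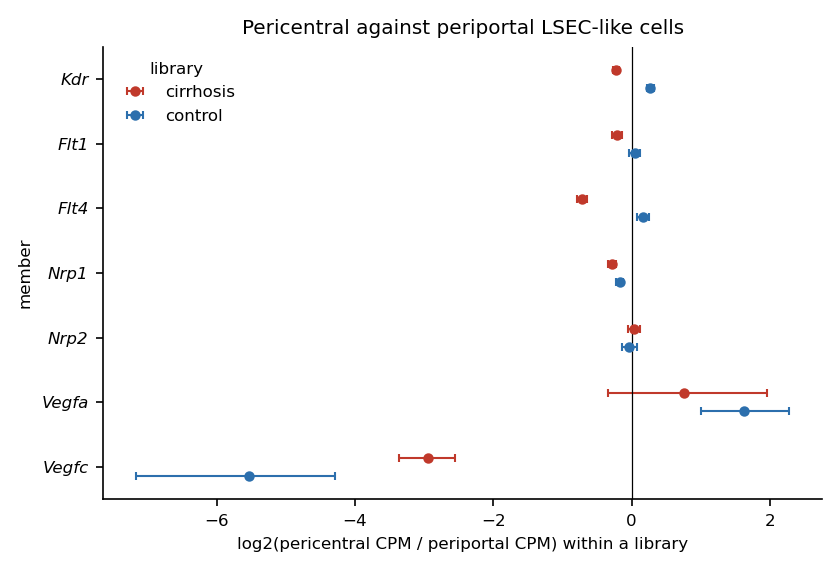
Log2 ratio of pericentral over periportal CPM within each library (x axis) for the 7 members (rows), with cirrhosis above control and exact conditional 95% intervals. Kdr and Flt4 lie left of 0 in cirrhosis and right of 0 in control, and Vegfc lies far left in both, at -2.95 in cirrhosis and -5.53 in control.

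Vegfa was sparse in endothelial cells and lower in cirrhosis. All LSEC-like cells held 77 UMIs or 3.03 CPM in cirrhosis (2.39 to 3.78) and 360 UMIs or 17.1 CPM in control (15.4 to 18.9), a log2 ratio of -2.50 (-2.87 to -2.14). Pericentral cells had 4.08 CPM in cirrhosis and 31.2 CPM in control, a 7.64-fold difference. Intermediate cells had 2.84 CPM in cirrhosis and 15.7 CPM in control, and periportal cells had 2.41 CPM in cirrhosis and 10.1 CPM in control. Central-vein cells had 10.5 CPM in cirrhosis and 42.9 CPM in control. In large-vessel cells, with 28 UMIs in cirrhosis and 14 in control, the interval held 0. Pericentral over periportal cells gave a log2 ratio of 0.76 in cirrhosis (-0.34 to 1.95) and 1.62 in control (1.01 to 2.28). It was above 0 in 7 of 7 settings in cirrhosis, at 0.76 to 3.77, and in 6 of 6 in control, at 1.61 to 1.91. The interval held 0 in cirrhosis alone, where the classes had 22 and 11 UMIs, and the difference between the libraries was not tested. After thinning, 0.868% of cirrhosis and 4.80% of control LSEC-like cells had a Vegfa UMI (2.57% in cirrhosis and 10.5% in control before thinning). T or NK cell-like barcodes had one in 0.4% of cirrhosis and 1.09% of control barcodes. The cirrhosis share, 0.545 to 1.31%, lay within the T or NK cell-like interval of 0.0101 to 2.21%, so Vegfa in cirrhosis LSEC-like cells is not told apart from background at this depth. The control share, 4.01 to 5.70%, lay above the T or NK cell-like interval of 0.225 to 3.14%. It lay within that of control B cell-like barcodes, 0.0603 to 12.6%, which had 15.1 CPM of Vegfa (3.12 to 44.2) from 3 UMIs. Fos moved with Vegfa between the libraries. Among control LSEC-like cells, Vegfa was 18.3 CPM in first-step cluster 4, with Fos at 2762 CPM, and 12.4 CPM in cluster 6, with Fos at 659 CPM. Cirrhosis cells of cluster 6 had 2.95 CPM from 3 UMIs, with Fos at 202 CPM. Over the 12 second-step clusters of control cells, the 4 highest in Vegfa had 21.8 to 42.9 CPM beside 1859 to 3006 CPM of Fos. The 4 lowest had 4.52 CPM (4 UMIs) to 10.1 CPM beside 372 to 1699 CPM of Fos, and among the other 4 Fos ran from 367 to 3210 CPM. The part of the immediate-early response was not tested.

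Of the named classes, the one with the highest Vegfa level was cholangiocyte-like, the bile duct epithelium, named from markers such as Krt19 (304 CPM in cirrhosis and 403 CPM in control). It had 85.7 CPM of Vegfa in cirrhosis (76.8 to 95.3) and 170 CPM in control (152 to 190), 1.99-fold lower in cirrhosis, where 9.2% of 11212 genes were at least 1.5-fold lower and 9.34% higher. It held 340 of the 650 Vegfa UMIs in the cirrhosis library, or 52.3%, and 305 of 878 in control, or 34.7%. The size of this class in cirrhosis moved with the settings. It was 280 cells as named, 142 with doublets kept and 126 with the first clustering at resolution 0.8. Control had 94, 104 and 86 cells. The Vegfa level and share of this class are not given under those settings. In these cells tdTomato, the unrecombined colour of the reporter, stood at 93.0 CPM in cirrhosis and 213 CPM in control, against 0.550 CPM in cirrhosis and 0.570 CPM in control LSEC-like cells. Cholangiocyte-like cells also held the hepatocyte gene Alb, at 3654 CPM in cirrhosis and 4442 CPM in control. LSEC-like cells had 165 CPM of Alb in cirrhosis and 107 CPM in control. Kdr in cholangiocyte-like cells stood at 728 CPM in cirrhosis and 901 CPM in control. The part of RNA from other cells in their Vegfa was not tested. Hepatocytes, known to make VEGF-A, had been removed by spinning per the labels, and the hepatocyte-like barcodes that remained held 4.87 CPM in cirrhosis and 13.5 CPM in control at median depths of 2170 UMIs in cirrhosis and 1696 UMIs in control. The deposited cells therefore do not show the liver's whole supply of Vegfa.

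Vegfc marked the inflow side of the vasculature. Large-vessel cells had 735 UMIs or 344 CPM in cirrhosis (319 to 369) and 207 UMIs or 281 CPM in control (244 to 322). Periportal cells had 87.4 CPM in cirrhosis (79.0 to 96.4) and 79.2 CPM in control (69.3 to 90.3). Intermediate cells had 22.4 CPM in cirrhosis and 8.83 CPM in control, central-vein cells 26.9 CPM in cirrhosis and 9.53 CPM in control, and pericentral cells 11.3 CPM in cirrhosis and 1.71 CPM in control. Lymphatic cells, whose growth VEGF-C directs, had 9.96 CPM from 7 UMIs. Thinned shares of cells with a UMI were 59.1% in cirrhosis and 58.4% in control large-vessel cells (86.1% in cirrhosis and 82.7% in control before thinning). The level was higher in cirrhosis in all 5 classes as named, and at least 1.5-fold in 3: 6.61-fold in pericentral cells (5 control UMIs), 2.82-fold in central-vein cells (6 control UMIs) and 2.54-fold in intermediate cells. Large-vessel cells differed 1.22-fold, a log2 ratio of 0.29 that ran from -0.06 to 0.33 over 12 alternatives and was below 0 in 2 of them. The periportal interval, -0.10 to 0.38, held 0, but over 12 alternatives that ratio ran from 0.09 to 0.99 and passed 1.5-fold in 3. The 3 classes with a 1.5-fold difference were those with the lowest levels. T or NK cell-like barcodes held 14.9 CPM of Vegfc in cirrhosis (9.88 to 21.5) and 2.38 CPM in control (0.874 to 5.18), 6.24-fold higher in cirrhosis. Pericentral cells did not exceed that level in either library. The T or NK class itself stood above the LSEC-like ratio in cirrhosis, with 5.97 Vegfc UMIs per 100 Kdr UMIs against 1.41, and B cell-like barcodes of that library had 0 Vegfc UMIs, which allows up to 5.76 CPM. Pericentral cells in cirrhosis, at 8.66 to 14.5 CPM, lay above that limit, so whether they exceed background depends on the class it is read from. The intermediate interval, 20.1 to 24.9 CPM in cirrhosis and 7.40 to 10.5 CPM in control, overlapped the T or NK cell-like one in cirrhosis and lay above it in control.

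In all LSEC-like cells, Vegfc had 31.7 CPM in cirrhosis and 17.4 CPM in control, a log2 ratio of 0.87 (0.69 to 1.05). This pooled value moved with the make-up of the cells compared. It was 0.43 with the 3 LSEC-like classes weighted equally and 0.06 without the clusters led by Gm42418 or by immediate-early genes. Within first-step cluster 6 it was 0.22 (-0.49 to 0.87), and within cluster 3 it had the opposite sign, at 29.6 CPM in cirrhosis and 91.8 CPM in control, or -1.63 (-2.04 to -1.20). Large-vessel cells held 31.9% of all Vegfc UMIs in the cirrhosis library and 27.6% in control, and periportal cells held 17.3% in cirrhosis and 30.2% in control.

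**Figure D4:**
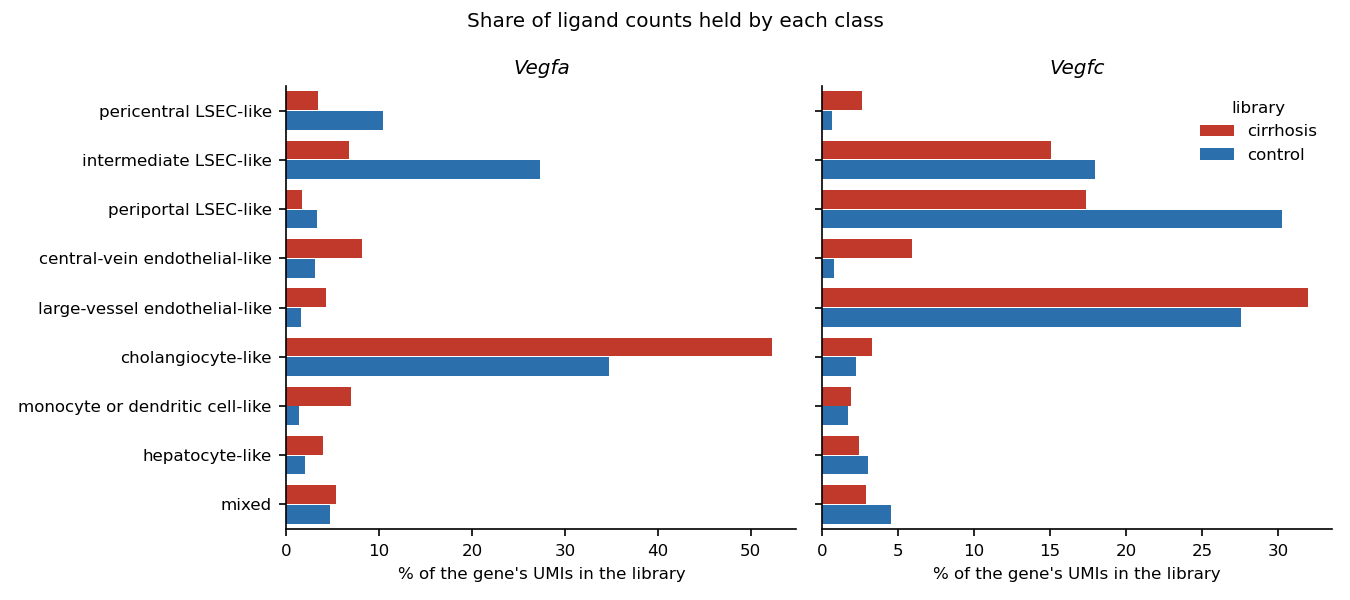
Percent of each library's Vegfa and Vegfc UMIs (x axes from 0) held by each class (rows), with the cirrhosis bar above the control bar. Cholangiocyte-like cells hold the largest Vegfa share of the classes drawn in cirrhosis, at 52.3%, and large-vessel cells the largest Vegfc share in cirrhosis, at 31.9%.

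In hepatocyte-like and cholangiocyte-like barcodes Nrp1 stood in nearly the same proportion to Kdr as in LSEC-like cells, and the source of these UMIs was not tested. All LSEC-like cells had 54.5 Nrp1 UMIs per 100 Kdr UMIs in cirrhosis and 61.7 in control. Hepatocyte-like barcodes had 54.2 in cirrhosis (50.5 to 58.1) and 59.2 in control (54.1 to 64.8), and cholangiocyte-like cells had 56.8 in cirrhosis and 58.1 in control. Their Flt1 was 35.3 in cirrhosis (32.8 to 37.9), above the LSEC-like 28.0, and 28.9 in control. Hepatocyte-like Flt1 was 31.2 in cirrhosis (28.6 to 34.0) and 32.8 in control (29.3 to 36.6), where LSEC-like cells had 29.0. Some classes stood off the LSEC ratio. Kupffer cell-like cells of the cirrhosis library had 171 Nrp1 UMIs per 100 Kdr UMIs (117 to 253), from 77 Nrp1 UMIs in 35 cells, while the 90 control cells had 52.3 (45.7 to 59.8). T or NK cell-like barcodes had 82.9 in cirrhosis (72.3 to 95.1) and 60.0 in control (55.9 to 64.5). Monocyte or dendritic cell-like cells had 76.2 in cirrhosis (70.7 to 82.1) and 61.3 in control (54.0 to 69.6), and their Nrp2 was 30.7 in cirrhosis (27.7 to 34.0) and 15.9 in control (12.8 to 19.6), against 21.2 in cirrhosis and 17.7 in control LSEC-like cells. Neutrophil-like cells had 115 Flt1 UMIs per 100 Kdr UMIs in cirrhosis (70.3 to 189) and 81.5 in control (53.5 to 124), against 28.0 in cirrhosis and 29.0 in control LSEC-like cells. These rest on 38 Flt1 UMIs in 59 cirrhosis cells and 44 Flt1 UMIs in 26 control cells. FLT1 is known on monocytes and macrophages, and NRP1 on regulatory T cells and some dendritic cells.

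**Figure D5:**
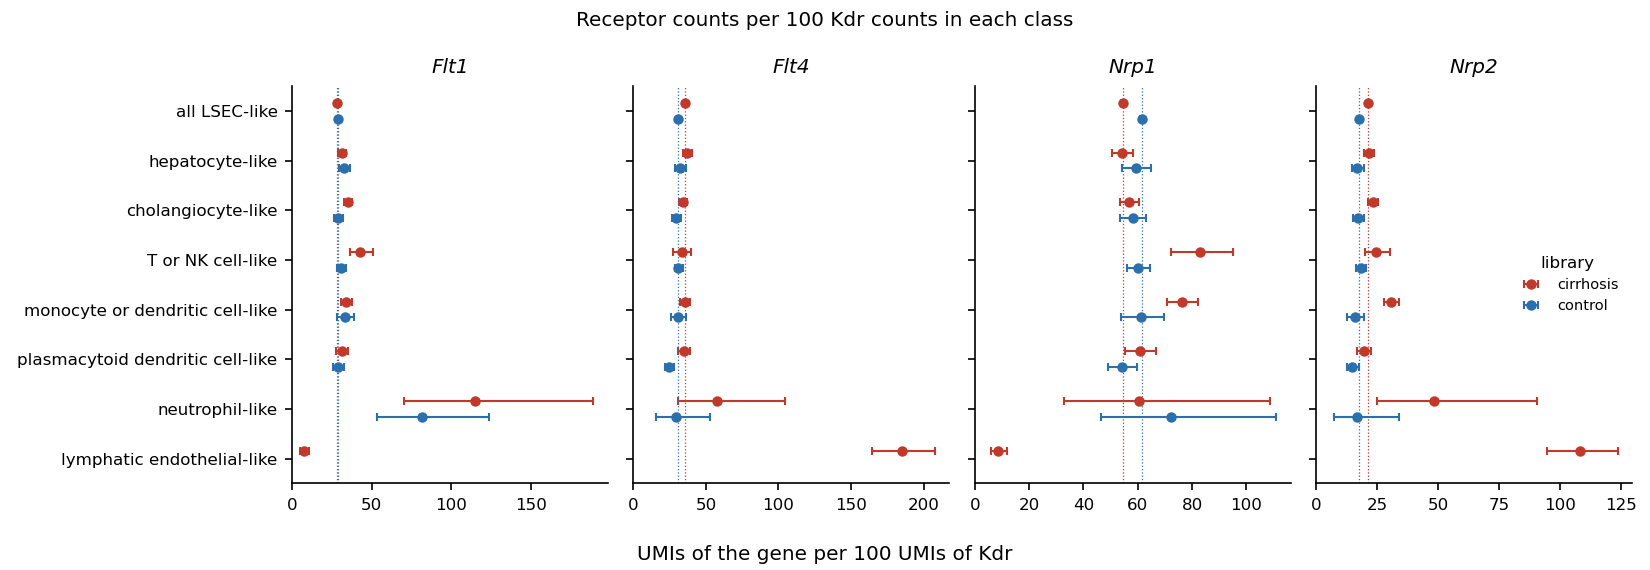
UMIs of 4 receptors per 100 Kdr UMIs (x axes from 0) in LSEC-like cells and other classes (rows), with cirrhosis above control, exact 95% intervals and dotted lines at each library's LSEC-like value. Hepatocyte-like and cholangiocyte-like classes lie near the lines for Nrp1, cholangiocyte-like cells of the cirrhosis library lie right of them for Flt1, neutrophil-like cells lie right of them for Flt1, and lymphatic cells lie right of them for Flt4 and Nrp2 and left for Flt1 and Nrp1.

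Other genes of the pathway, from 6 lists with 88 genes in the files, had a median difference near 0 in all LSEC-like cells. Of the 55 at a mean of at least 20 CPM, 2 were at least 1.5-fold higher and 8 lower, against 4.1% and 5.04% of 6871 genes, and their median log2 ratio was 0.03, against -0.04 over those genes. The lists were chosen with earlier results known, and 7 of the 88 had also served to name cells. Of the other ligands, 1 of 5 was measured: Vegfb, a ligand of FLT1, at 47.3 CPM in cirrhosis and 45.0 CPM in control. Of 12 semaphorins and plexins, 6 were measured, 0 higher and 2 lower by that fold. These were Sema3d, a secreted ligand, at 15.6 CPM in cirrhosis and 46.2 CPM in control (2.95-fold lower), and Plxna4, a plexin that pairs with neuropilins, at 33.1 CPM in cirrhosis and 55.8 CPM in control. Among 16 measured receptor partners and signal relays, 0 passed in either direction, and Ptprb, the phosphatase VE-PTP, had 2912 CPM in cirrhosis and 4086 CPM in control. Of 10 measured VEGF-induced genes, 2 were higher: Esm1, a tip cell proteoglycan, at 116 CPM in cirrhosis and 32.4 CPM in control, and Cd34, a sialomucin of capillary endothelium, at 194 CPM in cirrhosis and 22.1 CPM in control. Another 4 were lower: Dll4, a Notch ligand, at 101 CPM in cirrhosis and 156 CPM in control, Angpt2, a TIE2 ligand, at 14.2 CPM in cirrhosis and 30.7 CPM in control, Adm, adrenomedullin, at 34.5 CPM in cirrhosis and 75.4 CPM in control, and Dusp5, an ERK phosphatase, at 50.8 CPM in cirrhosis and 92.5 CPM in control. Of 12 measured hypoxia genes, 2 were lower: Ndrg1 at 236 CPM in cirrhosis and 354 CPM in control, and Ddit4 at 22.6 CPM in cirrhosis and 35.3 CPM in control. Of 10 measured transcription factors of the receptor genes, 0 passed in either direction.

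Genes most like each member were named by the correlation of log2(CPM + 1) over 24 class-by-library sums of 14 classes, among 7401 genes. The sums share the free RNA of their library, so these are descriptions. Kdr went with F8 (r = 0.977), Arhgap23 and Stard8, and Nrp1 went with Clec4g (r = 0.980), Bmp2 and Ehd3, of which F8, Clec4g, Bmp2 and Ehd3 had also served to name LSEC-like cells. Flt1 went with Tmem47 (r = 0.978), Cd59a and Gata4. Flt4 and Nrp2 had each other among their 3 most alike genes (r = 0.971), with Cpne2 for both, Ctdspl for Flt4 and Pros1 for Nrp2. Vegfa was matched less closely, by Zfp395 (r = 0.819), Anxa5 and Cyr61. Vegfc was nearest to Mecom (r = 0.891), Adgrg6 and Nrarp. Mecom and Adgrg6 were also leading genes of the periportal cluster, and Adgrg6 was a leading gene of the large-vessel cluster too.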

How the data were processed

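Single Cell 3′ v3 libraries of sorted liver cells, 1 per group, were deposited by the authors as raw UMI counts per gene and cell. Per the submitters' processing notes they used Cell Ranger and mm10. Their versions and the annotation are not stated in the sources used here. The tables had 8327 cirrhosis and 5642 control barcodes. Cells with under 500 UMIs, under 300 genes, at least 20% mitochondrial or over 5% erythroid counts were left out (666 in cirrhosis and 475 in control), then simulated-doublet calls at 0.8% per 1000 cells (470 in cirrhosis and 214 in control), leaving 7191 cirrhosis and 4953 control cells. Cells were clustered with scanpy 1.11.5 and igraph 0.11.9 (2000 variable genes, 30 components, 20 neighbours, seed 0) at resolution 0.5, and endothelial clusters again at resolution 1 without the 7 members. Clusters were named from marker lists, and 20.2% of cirrhosis and 17.6% of control cells stayed outside the named classes. The naming thresholds, the separate central-vein class and 4 added alternatives, besides the comparisons within first-step clusters and with joined classes and all alternatives for central-vein cells, were set after seeing the data, and 16 alternatives were planned. The members and lists were chosen with earlier results of these data known. Counts were summed per library and class, and a difference was counted at 1.5-fold, over genes at a mean of at least 5 CPM (20 CPM for lists). Classes were compared from 50 cells per library. Intervals were exact Poisson, exact binomial (Clopper-Pearson) or exact conditional, from scipy 1.17.1, at 95%, and cover counting error only. With 1 library per group no test was made. The ratio computation was tested on simulated data. Named were the 7 members in classes of at least 50 cells, up to 3 list genes per direction past the fold, and the 3 genes most like each member. Outside that rule, Vegfb, Ptprb, Dll4 and the Kupffer, neutrophil and B cell-like values of smaller classes were chosen after their values were seen. Like genes were the 3 with the highest Pearson r per member.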

Additional observations from a re-analysis of the deposited data

Results flagged for a closer look

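Kdr ran in opposite directions across the zones in the libraries. The log2 ratio of pericentral over periportal LSEC-like cells was -0.23 in cirrhosis and 0.27 in control, and the difference was not tested. Flt4 did the same, at -0.72 in cirrhosis and 0.16 in control, and that difference was not tested either. The part of first-step cluster 5, with 572 cirrhosis and 27 control cells, was not tested. With the central-vein cells joined to the pericentral class, the cirrhosis values stayed below 0 in 10 of 10 settings for both genes, while the control values were above 0 in 5 of 10 settings for Kdr and in 3 of 10 for Flt4.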

How the results depend on the processing

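No paired analysis was possible because each group was 1 library. No spread between animals can be given, and the control vessel classes, of 75 and 81 cells, limit the depth there. Of the single-member log2 ratios under alternatives, 329 stayed within their counting intervals, 161 moved beyond them and 0 of the called ones changed sign. As reported, members past 1.5-fold higher and lower numbered 1 and 2 in all LSEC-like, 1 and 4 in pericentral, 1 and 1 in intermediate, 0 and 2 in periportal, 0 and 2 in large-vessel and 1 and 4 in central-vein cells, with 2 and 8 other pathway genes. With 2-fold in place of 1.5-fold, 0 were higher and 1 lower in all LSEC-like, 1 lower in pericentral, 1 in periportal, 0 in large-vessel and 2 in central-vein cells, and 3 pathway genes were lower. Under median-of-ratios scaling, 1 was lower in all LSEC-like, 1 in periportal and 1 in large-vessel cells, with 4 pathway genes higher and 5 lower. All LSEC-like cells had 1 lower with cells weighted equally, clustering seed 1, doublets kept, the stricter cell filter, first resolution 0.8, second resolution 1.5, members allowed in the second clustering or control cluster 4 alone. Periportal cells had 1 lower under seed 1, doublets kept, the stricter cell filter, the stricter limit on other transcripts, first resolutions 0.3 and 0.8, second resolution 1.5 and members allowed in clustering, and 1 higher under seed 1, first resolution 0.8 and the stricter limit on other transcripts. Large-vessel cells had 1 lower with cells weighted equally, first resolutions 0.3 and 0.8 and the stricter limit on other transcripts. Without the clusters led by Gm42418 or immediate-early genes, 0 were higher in all LSEC-like and 2 lower in intermediate cells. With the 3 LSEC-like classes weighted equally, 0 were higher in all LSEC-like cells. Other pathway genes numbered 4 higher against control cluster 6 alone, 5 higher at first resolution 0.3, and 11 higher and 16 lower with no minimum level. The cause of these shifts was not tested. Pericentral cells could not be compared at first resolution 0.3 (503 cirrhosis and 36 control cells), nor under the stricter cell filter, first resolution 0.8 or seed 1, where no cluster took that name. Central-vein cells, whose alternatives were chosen after seeing the data, could not be compared with doublets kept, the stricter limit on other transcripts, members allowed in the second clustering or second resolution 1.5, which left 24 to 38 control cells.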

Other observations

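A small first-step cluster without a name, led by Ccr7, Apol7c and Il4i1, held 29 cirrhosis and 4 control cells. Its Nrp2 level was 146 CPM in cirrhosis and 223 CPM in control, against 159 CPM of Kdr in cirrhosis and 68.6 CPM in control. A mixed cluster led by the collagen genes Col1a1, Col1a2 and Col3a1 (29 cirrhosis and 87 control cells) had 64.2 CPM of Vegfa in cirrhosis from 21 UMIs and 17.3 CPM in control from 19 UMIs. Both were too small to be compared.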
